A study of Mus musculus with 19 samples.

Results

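The genes described here are the extracellular matrix genes of the table, taken by symbol: all collagen chains, laminin chains and thrombospondins, together with 15 further matrix genes that include ligands of α9 integrin. Of the 12629 genes in the table, 49 matched this rule, which reads the symbol alone. RNA-seq was done on GFP-positive cells that were sorted from dorsal root ganglia (DRGs) 8 weeks after injection of adeno-associated virus (AAV5). GFP-naive (n = 5) and GFP-crush (n = 4) received AAV5-fGFP, in which a CMV promoter drives membrane-targeted GFP, without and with crush of the dorsal roots. α9k1-naive (n = 6) and α9k1-crush (n = 4) received AAV5-α9-V5, with a CAG promoter, together with AAV5-kindlin1-GFP, with a CMV promoter, without and with the same crush. In the methods text the animals were male Lewis rats aged 2 months, whose left ganglia from C5 to C8 were injected in the operation in which the roots were crushed, whereas the labels name C57BL/6 mice for all 4 groups. The GFP marks kindlin-1 but not α9 integrin, so a sorted α9k1 cell need not carry both vectors.

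α9 integrin pairs with the β1 chain and binds tenascin-C, osteopontin, the alternatively spliced EIIIA segment of fibronectin, EMILIN1 and thrombospondin-1, among others. Kindlin-1 is an integrin activator that binds the tail of the β chain. In a ganglion, fibrillar collagens and the small proteoglycans decorin and lumican are made mainly by fibroblasts, whereas laminins, nidogens and type IV collagen form the basement membrane that wraps the satellite glia, Schwann cells and vessels. Tenascin-C is a glycoprotein of the injured spinal cord, and neurons without α9 integrin largely lack a receptor for it.

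Libraries held 36.4 to 87.6 M read pairs, and 47.5% to 54.1% of reads were aligned to the mouse genome, with 3.87% to 4.05% of aligned bases differing from it. In the 2 α9k1 groups the transduced genes were high, as kindlin-1 (Fermt1) was 5.18 to 6.0 and 6.42 to 7.73 on the deposited log2 scale against at most 0.80 in the GFP libraries. α9 integrin (Itga9) was 2.38 to 5.16 in α9k1-naive and 5.53 to 7.51 in α9k1-crush, against 0.90 to 2.40 in the GFP libraries, so α9k1-naive overlapped GFP-naive by its lowest library. All 12 sensory neuron markers were in the table, with a summed level (log2 of the summed linear values) of 12.65 to 14.4 over the 19 libraries. The 7 satellite glia markers, also all in the table, summed to 14.06 to 16.76, above the neuron markers in 17 of 19 libraries. The part of these cells in the results was not tested.

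Short stretches of the mouse reference show ligand features that integrins read, not all of them sites of α9 integrin. They are shown because osteopontin and fibronectin are ligands whose integrin-binding sites are well known, the RGD tripeptide (in capitals) among them. RGD is also encoded in Thbs1 and Emilin1. The Spp1 stretch lies in exon 7 of 8 at chr5:104439481-104439510 (GRCm38, plus strand) and holds the codons of RGD followed by those of the segment that α9β1 and α4β1 bind. The first Fn1 stretch lies in exon 30 of 46 at chr1:71606725-71606754 (minus strand). The second Fn1 stretch lies in exon 33 at chr1:71603790-71603819 (minus strand) inside the EIIIA segment, with the codons of its EDGI motif in capitals.
Spp1 RGD: CGAGGTGATagcttggcttatggactgagg
Fn1 RGD: CGTGGGGACagtccagcaagcagcaagcca
Fn1 EIIIA: agccctGAGGATGGAATCcgggagcttttc
The EIIIA stretch is in 4 of the 9 annotated coding Fn1 transcripts. The values are per gene, and do not tell transcripts with this exon from those without it.

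In all, 3 of the 5 ligands were called higher (adjusted p under 0.1 in a limma fit over all genes) in α9k1-naive than in GFP-naive, where 11.4% of all genes were, as plotted for each library. Tnc, which encodes tenascin-C (chr4:63959785-64047015), was 4.67, 4.94, 5.22, 5.24 and 5.43 in GFP-naive and 6.10 to 6.49 with a median of 6.37 in α9k1-naive. It was 3.47, 3.48, 4.0 and 4.43 in GFP-crush and 4.85, 5.45, 5.47 and 5.53 in α9k1-crush. Each α9k1 group was wholly above the GFP group of the same injury state, and each crush group lay below its naive group. In the limma fit, which takes 3 components of the library metrics as covariates, the log2 fold change (log2FC) of Tnc was 1.0 ± 0.24 in α9k1-naive against GFP-naive (SE, as for every log2FC here, adjusted p = 0.0073) and -1.10 ± 0.24 in GFP-crush against GFP-naive (adjusted p = 0.008). After crush the α9k1 difference was 0.78 ± 0.51 and was not called (adjusted p = 0.69), while without covariates it was 1.48 (adjusted p = 2.3e-05) and, in a fit of only these 2 groups with the covariates, -1.31. On the deposited values the 2-sided exact permutation test gave p = 0.029 for this comparison (adjusted p = 0.044 over 20 tests), the smallest p that 4 against 4 allows.

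**Figure D1:**
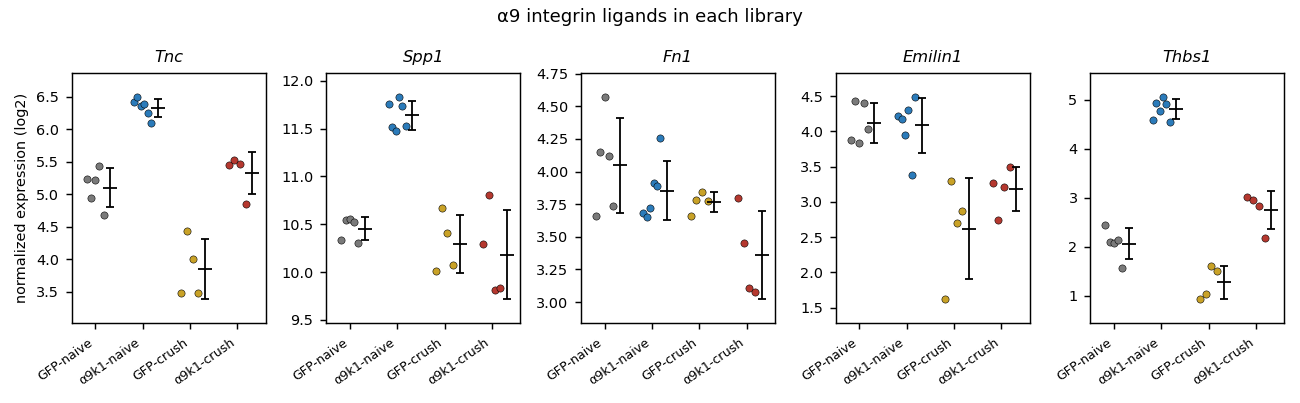
Normalized expression (log2, y axis) of the 5 α9 integrin ligands in each library, by group on the x axis. Points are libraries, and the dash and bar beside them are the group mean and SD. Thbs1, Tnc and Spp1 are highest in α9k1-naive, and both Fn1 and Emilin1 overlap between the 2 naive groups.

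Thbs1, which encodes thrombospondin-1 (chr2:118111876-118127133), had the largest log2FC of the 5 ligands in α9k1-naive against GFP-naive. It was 1.58, 2.08, 2.09, 2.14 and 2.46 in GFP-naive and 4.55 to 5.05 with a median of 4.85 in α9k1-naive. It was 0.93, 1.04, 1.51 and 1.61 in GFP-crush and 2.18, 2.84, 2.95 and 3.01 in α9k1-crush. The α9k1 libraries were above the GFP libraries both without and with crush, and α9k1-crush lay wholly below α9k1-naive. The log2FC was 2.68 ± 0.24, adjusted p = 1.5e-06 without crush and 1.43 ± 0.52, adjusted p = 0.40 after crush, where the fit without covariates called it (1.47, adjusted p = 2.3e-05). The exact permutation test, 2-sided, gave p = 0.0022 without crush and p = 0.029 after crush (adjusted p = 0.014 and 0.044). From α9k1-naive to α9k1-crush the log2FC was -1.87 ± 0.43, adjusted p = 0.021. The log2FC of -0.63 ± 0.24, adjusted p = 0.093 in GFP-crush against GFP-naive, where the groups overlapped, held in 5 of 19 fits that each left out 1 library.
Spp1 encodes osteopontin, a secreted phosphoprotein of large sensory neurons and of macrophages (chr5:104435118-104441050). It was 10.30, 10.34, 10.53, 10.55 and 10.55 in GFP-naive and 11.47 to 11.83 with a median of 11.63 in α9k1-naive. It was 10.01, 10.08, 10.41 and 10.67 in GFP-crush and 9.81, 9.83, 10.29 and 10.80 in α9k1-crush. The α9k1-naive libraries stood apart, above all others. The log2FC was 1.23 ± 0.23, adjusted p = 0.0016 without crush and -1.50 ± 0.42, adjusted p = 0.048 from α9k1-naive to α9k1-crush, a call that was lost without α9k1-naive replicate 1 or GFP-crush replicate 2. The crush groups overlapped (exact permutation p = 0.71), as did the 2 GFP groups (exact permutation p = 0.3).
Fn1 and Emilin1 overlapped between the naive groups. Fn1, fibronectin (chr1:71585520-71653200), was 3.66, 3.74, 4.12, 4.15 and 4.57 in GFP-naive and 3.65 to 4.26 with a median of 3.81 in α9k1-naive. It was 3.66, 3.78, 3.78 and 3.84 in GFP-crush and 3.08, 3.11, 3.45 and 3.80 in α9k1-crush, so all 4 groups overlapped. Its log2FC of -0.55 ± 0.18, adjusted p = 0.056 in GFP-crush against GFP-naive was called, but held in 15 of 19 fits that each left out 1 library and was -0.28 without covariates (adjusted p = 0.27). Between the α9k1 groups the sign of its change turned with the fit, at 0.03 with covariates and -0.49 without them (adjusted p = 0.025). On the deposited values the exact permutation test, 2-sided, gave p = 0.024 (adjusted p = 0.043). Emilin1, an elastic fibre glycoprotein (chr5:30913402-30921277), was 3.84, 3.88, 4.04, 4.41 and 4.43 in GFP-naive and 3.38 to 4.48 with a median of 4.20 in α9k1-naive. It was 1.62, 2.70, 2.87 and 3.30 in GFP-crush and 2.74, 3.22, 3.27 and 3.49 in α9k1-crush. GFP-crush lay wholly below GFP-naive (log2FC -1.63 ± 0.35, adjusted p = 0.0079), and the 2 crush groups overlapped. Between the α9k1 groups, which overlapped, its log2FC was -1.28 ± 0.62, adjusted p = 0.25 with covariates and -0.91 without them (adjusted p = 0.0091), and the exact permutation test, 2-sided, gave p = 0.014 (adjusted p = 0.032).

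Across all 49 genes, the naive α9k1 group was low in most fibrillar collagens and high in a few glycoproteins, and GFP-crush was low in most of the matrix genes, as the heat map of the libraries shows. Genes with an adjusted p under 0.1 in the limma fit (Benjamini-Hochberg, over all 12629 genes) were called. In α9k1-naive against GFP-naive, 7 of the 49 were higher and 18 lower, where 11.4% and 17.6% of all genes were called. In GFP-crush against GFP-naive none was higher and 39 were lower, where 7.39% and 15.7% of all genes were called. Centring each library on its median moved the median log2FC of all genes in this comparison from -0.08 to 0.06 and the calls of all genes to 14.5% higher and 9.34% lower (9.55% and 10.9% after quantile normalization), with 33 of the 49 lower (35) and still none higher. In α9k1-crush against α9k1-naive, 9 were higher and 8 lower, where 4.47% and 5.27% of all genes were called. In α9k1-crush against GFP-crush none of the 49 was called in either direction by limma with the covariates, where 0.728% of all genes were called higher and 0.182% lower, although 8 of the 49 had an unadjusted p under 0.05, as had 9.11% of all genes. The median log2FC of the 49 was -0.11, -0.96, -0.21 and 0.28 in these comparisons in the same order, against -0.08, -0.08, 0.00 and 0.01 over all genes. In bulk libraries, fewer cells of a type and less RNA per cell cannot be told apart.

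**Figure D2:**
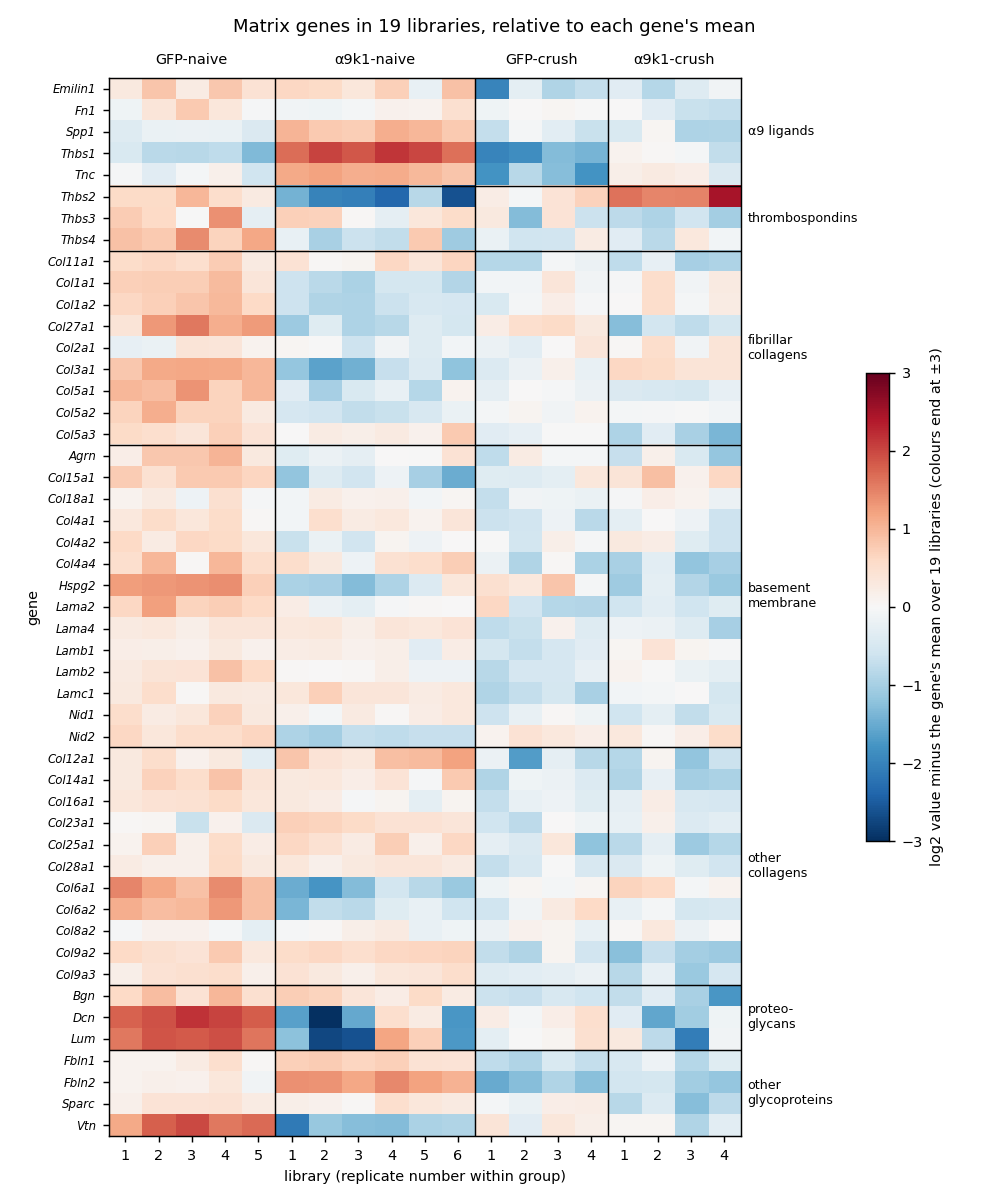
Values of the 49 matrix genes (rows, grouped by role) in the 19 libraries (columns, by group), as the log2 value minus the gene's mean over all libraries. Most fibrillar collagens, Dcn, Lum and Vtn are low in α9k1-naive, Thbs1 and Tnc are high there, and Thbs2 is highest in α9k1-crush.

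The covariates weigh on these counts, most of all for α9k1-crush. Without them the counts were 7 higher and 22 lower in α9k1-naive against GFP-naive (all genes, 16.5% and 29.5%), and 0 higher and 42 lower in GFP-crush against GFP-naive (all genes, 11% and 20.1%). They were 10 higher and 25 lower in α9k1-crush against α9k1-naive (all genes, 28.5% and 27.1%), and 10 higher and 8 lower in α9k1-crush against GFP-crush (all genes, 29.6% and 28.3%). The third component of the metrics, with 74.5% of its variance between groups, goes along with the groups, and with the covariates the unscaled variance of the α9k1-crush against GFP-crush difference was 3.11 against 0.5 without them. It was 2.12 against 0.42 for α9k1-crush against α9k1-naive, and 2.78 against 0.87 for the interaction of α9k1 and crush. Metrics and groups cannot be told apart in these comparisons. The median log2FC of the 49 without covariates was -0.23 in α9k1-naive against GFP-naive, -0.81 in GFP-crush against GFP-naive, -0.48 in α9k1-crush against α9k1-naive and 0.00 in α9k1-crush against GFP-crush, against -0.09, -0.07, 0.01 and 0.03 over all genes.

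Without crush, the α9k1 group had low fibrillar collagens and small proteoglycans, and high levels of a few glycoproteins. Of the 9 fibrillar collagen chains measured, 6 fell and none rose (all genes, 17.6% and 11.4%), with a median log2FC of -1.15 against -0.08 over all genes. Col3a1, the chain of type III collagen (chr1:45311538-45349706), was 6.62, 6.81, 6.96, 6.96 and 6.98 in GFP-naive and 4.22 to 5.41 with a median of 4.63 in α9k1-naive, with a log2FC of -2.01 ± 0.22, adjusted p = 1.3e-05. Col1a1, a chain of type I collagen (chr11:94936224-94953042), was 6.35, 6.71, 6.74, 6.74 and 6.94 in GFP-naive and 5.05 to 5.48 with a median of 5.28 in α9k1-naive. The groups did not overlap for either gene, and Col1a1 fell by 1.36 on the log2 scale (adjusted p = 9.8e-05). Col27a1 fell by 1.60, Col1a2 by 1.23, Col5a2 by 1.15 and Col5a1 by 1.13, whereas Col2a1, Col5a3 and Col11a1 were not called. The chains of type VI collagen, a beaded microfibril around cells, fell as well, with Col6a1 at -2.26 ± 0.25, adjusted p = 1.3e-05 and Col6a2 at -1.53 ± 0.26, adjusted p = 6.2e-04.
Of the 3 small proteoglycans, which bind collagen fibrils, Dcn (decorin, chr10:97479500-97518162) and Lum (lumican, chr10:97565501-97572703) fell, and Bgn (biglycan) was not called. Dcn was 8.43, 8.48, 8.58, 8.69 and 8.85 in GFP-naive and 3.35 to 7.17 with a median of 5.08 in α9k1-naive, with a log2FC of -3.10 ± 0.57, adjusted p = 0.0013. Lum was 5.61, 5.64, 5.88, 5.92 and 5.98 in GFP-naive and 1.31 to 5.22 with a median of 2.56 in α9k1-naive, with a log2FC of -2.55 ± 0.73, adjusted p = 0.021. Both were lower in all 6 α9k1-naive libraries, but they varied more there than any other gene in any group, with an SD of 1.42 for Dcn and 1.67 for Lum. The call of Lum was lost without α9k1-naive replicate 6. The gene with the next widest spread was Thbs3 in GFP-crush, with an SD of 0.81 there.
Of the basement membrane genes 5 of 14 fell and none rose (all genes, 17.6% and 11.4%). Col15a1, a collagen of the zone beneath basement membranes, had a log2FC of -1.65. Perlecan (Hspg2), the heparan sulphate proteoglycan of the basement membrane, had -1.37, and the linker nidogen-2 (Nid2) had -1.25. The laminin chains Lama2 and Lamb2 had -0.89 and -0.59, the latter a call lost without α9k1-naive replicate 6. The main type IV chain Col4a1 was 6.15 ± 0.21 (SD) in GFP-naive and 6.04 ± 0.21 in α9k1-naive, and Lama4 was 4.82 ± 0.08 and 4.84 ± 0.07. Neither was called, nor were Lamb1 and Lamc1. Without covariates 8 of the 14 were called lower (all genes, 29.5%), Col4a2 (-0.73), Agrn (-0.69) and Nid1 (-0.26) included, as was Col16a1 (-0.37) of the other collagens, all 4 uncalled with covariates. Vtn, the plasma and pericyte adhesion protein vitronectin (chr11:78499091-78502324), was 4.28, 4.72, 4.82, 4.93 and 5.12 in GFP-naive and 1.02 to 2.23 with a median of 1.92 in α9k1-naive (log2FC -2.40 ± 0.22, adjusted p = 2.1e-06), again without overlap.
The thrombospondins moved apart. While Thbs1 rose, Thbs2 (chr17:14665500-14694262) fell, from 3.74, 3.99, 4.05, 4.05 and 4.48 in GFP-naive to 0.85 to 2.64 with a median of 1.46 in α9k1-naive (log2FC -2.55 ± 0.37, adjusted p = 1.8e-04). The range of Thbs2 in α9k1-naive lay wholly below that in GFP-naive. Thbs4, a pentameric form found in muscle and nerve, had a log2FC of -1.67 ± 0.40, adjusted p = 0.0086, although its groups overlapped and the call was lost without α9k1-naive replicate 6. Thbs3 was not called.
Besides Thbs1, Spp1 and Tnc, the genes that rose were Fbln2, Fbln1, Col12a1 and Col23a1. Fbln2 encodes fibulin-2, a glycoprotein that links elastic fibres and basement membranes (chr6:91212455-91272540). It was 9.53, 9.73, 9.76, 9.79 and 9.98 in GFP-naive and 10.68 to 11.08 with a median of 10.90 in α9k1-naive, without overlap, and its log2FC was 1.13 ± 0.19, adjusted p = 6.5e-04. Col12a1, a collagen that sits on fibrils, had a log2FC of 1.06 ± 0.31, adjusted p = 0.025 with covariates and 0.59 without them. The transmembrane collagen Col23a1 had 0.69 ± 0.24, adjusted p = 0.054, a call held in 16 of 19 fits that each left out 1 library, and Fbln1 had 0.45 ± 0.17, adjusted p = 0.077, held in 12 of 19.

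**Figure D3:**
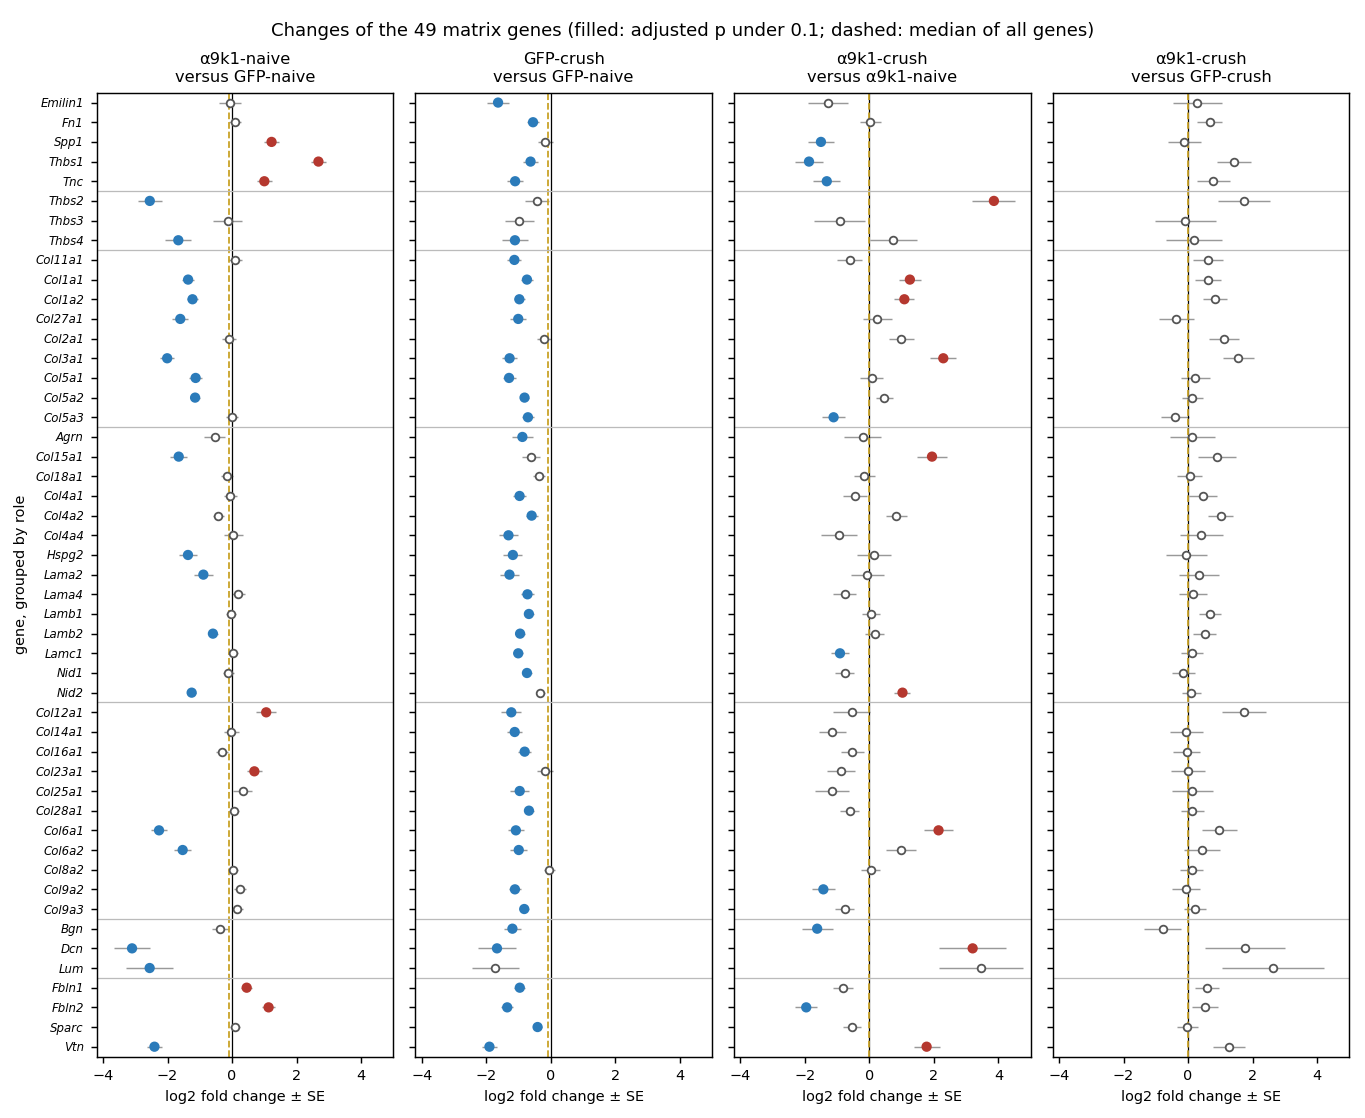
Log2 fold change with its SE (x axis) of each matrix gene (y axis, grouped by role) in the 4 comparisons. Filled points are called at an adjusted p under 0.1, open points are not, and the dashed line is the median over all genes. Most points lie below 0 for GFP-crush against GFP-naive, and none is filled for α9k1-crush against GFP-crush.

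Crush in the GFP arm went with lower levels of most matrix genes. Against GFP-naive, 8 of the 9 fibrillar collagens, 11 of the 14 basement membrane genes, 9 of the 11 other collagens, 4 of the 5 ligands, 2 of the 3 small proteoglycans and all 4 other glycoproteins fell, and none of the 49 rose (all genes, 15.7% lower and 7.39% higher). The deposited values of 31 of the 49 did not overlap between the groups, all of them lower in GFP-crush, where 12.2% of all genes were so. Vtn was 2.79, 3.30, 3.46 and 3.52 in GFP-crush and had the most negative log2FC of -1.90 ± 0.22, adjusted p = 1.4e-04. Fbln2 was 8.11, 8.34, 8.38 and 8.73, against 9.53 to 9.98 in GFP-naive, with a log2FC of -1.35 ± 0.19, adjusted p = 5.4e-04. Dcn was 6.60, 6.87, 6.89 and 7.17, against 8.43 to 8.85 in GFP-naive. None of these 3 genes overlapped between the 2 GFP groups, and the log2FC of Dcn was -1.67 ± 0.57, adjusted p = 0.065, called in 14 of 19 fits that each left out 1 library.
Among the basement membrane genes, Col4a4 had a log2FC of -1.31 ± 0.31, adjusted p = 0.013 and Lama2 of -1.28 ± 0.29, adjusted p = 0.0098, both with overlapping groups. The widely expressed laminin chains Lamb1, Lamb2 and Lamc1 fell by 0.68, 0.95 and 1.01, and Col4a1 by 0.97. The collagen chains Col5a1, Col3a1 and Col12a1 fell by 1.29, 1.28 and 1.22. Bgn fell by 1.19 (adjusted p = 0.01). The genes not called were Spp1, Lum, Thbs2, Thbs3, Col2a1, Col8a2, Col15a1, Col18a1, Col23a1 and Nid2. Of these, Lum, Thbs3, Col15a1, Col18a1 and Nid2 were called lower without covariates, at -1.70, -0.80, -0.87, -0.42 and -0.28. Of the 39 calls 28 held in all 19 fits that left out 1 library, and the smallest count was 28, without GFP-naive replicate 2. Fitting only these 2 groups gave 19, a fit for which the share of all genes is not given here.

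In α9k1-crush against α9k1-naive the genes went in both directions. The 9 that rose were Thbs2, Dcn, Col3a1, Col6a1, Col15a1, Vtn, Col1a1, Col1a2 and Nid2, all of them called lower in α9k1-naive against GFP-naive. As the α9k1-naive libraries enter both comparisons, the 2 sets of calls are not independent. Thbs2 was 4.94, 4.95, 5.09 and 5.95 in α9k1-crush, against at most 2.64 in α9k1-naive, and had the largest log2FC of 3.86 ± 0.67, adjusted p = 0.0051. Col3a1 was 6.20, 6.21, 6.39 and 6.44 in α9k1-crush, above all α9k1-naive libraries, with a log2FC of 2.29 ± 0.40, adjusted p = 0.0053. Col6a1 was 3.0, 3.15, 3.64 and 3.71, against 1.28 to 2.50 in α9k1-naive, with a log2FC of 2.14 ± 0.45, adjusted p = 0.013. Col15a1 had a log2FC of 1.94, Col1a1 of 1.25, Col1a2 of 1.08 and Nid2 of 1.02, without overlap between the groups. The call of Col1a2 held in 14 of 19 fits that each left out 1 library. Fitting only these 2 groups gave 1 higher and 4 lower, again without a share of all genes to set beside them.
The rise of Dcn depended on the covariates. It was 5.12, 5.62, 6.33 and 6.53 in α9k1-crush, within the range of α9k1-naive, and its log2FC was 3.20 ± 1.03, adjusted p = 0.084 with covariates and 0.48 without them (adjusted p = 0.47). The call of Dcn held in 7 of 19 fits that each left out 1 library, in which its log2FC was 2.31 to 3.67. Vtn overlapped by its α9k1-crush library at 2.22, and its log2FC was 1.77 ± 0.40, adjusted p = 0.019 with covariates and 1.0 without them (adjusted p = 0.0021).
The 8 genes that fell were led by Fbln2, Thbs1 and Bgn and included Spp1 and Tnc. Fbln2 was 8.48, 8.58, 9.08 and 9.09 in α9k1-crush, wholly below α9k1-naive, with a log2FC of -1.96 ± 0.34, adjusted p = 0.0056. Bgn was 2.55, 3.33, 3.55 and 3.94, against 4.51 to 5.04 in α9k1-naive, with a log2FC of -1.62 ± 0.48, adjusted p = 0.061. The cartilage-type chain Col9a2 had a log2FC of -1.43, Col5a3 of -1.11 and the laminin chain Lamc1 of -0.91. The log2FC of Tnc was -1.32 ± 0.43, adjusted p = 0.084, and its call held in 8 of 19 fits that each left out 1 library, those of Col5a3 and Lamc1 in 6 of 19 and 10 of 19. The groups of all 8 genes lay apart. Without α9k1-naive replicate 4 the counts were 4 higher and 3 lower, and they were 9 and 3 without α9k1-naive replicate 1. The count of lower genes was 4 to 5 without α9k1-naive replicate 2 or 3, GFP-naive replicate 3, GFP-crush replicate 1 or 2, or α9k1-crush replicate 4. Further genes were called lower without covariates, led by Col12a1 (-1.43), Col4a4 (-1.26), Col25a1 (-1.23), Thbs3 (-1.17) and Col14a1 (-1.11).

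With crush in both arms, the α9k1 libraries were set apart from the GFP libraries at 9 of the 49 genes on the deposited values, 5 of them higher and 4 lower, where 20% and 20.8% of all genes did not overlap. For the 49 both shares are below those of all genes. Higher were Tnc, Thbs1, Thbs2, Col3a1 and Lamb1, and lower were Col27a1, Hspg2, Sparc and Dcn. Thbs2 was 3.43, 3.70, 3.90 and 4.17 in GFP-crush and 4.94, 4.95, 5.09 and 5.95 in α9k1-crush, with a log2FC of 1.72 ± 0.81, adjusted p = 0.55 with covariates and 1.44 without them (adjusted p = 0.0011). Col27a1 was 2.43, 2.50, 2.69 and 2.77 in GFP-crush and 0.92, 1.43, 1.66 and 1.68 in α9k1-crush, and perlecan (Hspg2) was 3.30, 3.69, 3.85 and 4.20 and 2.25, 2.31, 2.48 and 3.08. Both lay lower in α9k1-crush, with log2FC of -1.18 and -1.23 without covariates (adjusted p = 4.0e-04 and 0.0019), but of -0.36 ± 0.54 and -0.06 ± 0.64 with them. The collagen-binding glycoprotein Sparc was 11.98, 12.10, 12.37 and 12.39 in GFP-crush and 10.91, 11.35, 11.38 and 11.77 in α9k1-crush, the highest values of the 49 genes on this length-normalized scale. Its log2FC was -0.86 without covariates (adjusted p = 1.9e-04) and -0.02 ± 0.33 with them. Dcn was 6.60, 6.87, 6.89 and 7.17 in GFP-crush and 5.12, 5.62, 6.33 and 6.53 in α9k1-crush, with means of 6.88 and 5.90. Its log2FC with covariates was 1.77 ± 1.24, adjusted p = 0.72, so its sign turned with the covariates.

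The α9k1 effect differed between the injured and the uninjured state for 12 genes, all in the positive direction. The interaction, the α9k1 effect in crushed minus that in uninjured animals, was called positive for 12 and negative for none of the 49, where 1.35% and 0.847% of all genes were called. With centring on library medians 9 of the 49 were positive and none negative, where 0.934% and 1.32% of all genes were called, and quantile normalization gave 9 and none, where 1.01% and 1.06% were called. Without covariates it was called positive for 20 and negative for 5, where 23.3% and 16.1% of all genes were called. The largest were Dcn (4.87 ± 1.18, adjusted p = 0.066), Thbs2 (4.27 ± 0.76, adjusted p = 0.016), Vtn (3.67 ± 0.46, adjusted p = 0.0019), Col3a1 (3.57 ± 0.46, adjusted p = 0.0022) and Col6a1 (3.22 ± 0.51, adjusted p = 0.01). Col15a1, Col1a2, Col1a1 and Col6a2 followed with 2.55, 2.06, 1.99 and 1.97, and Col4a2, Nid2 and Col5a2 had 1.43, 1.35 and 1.27. All 12 were also called positive without covariates, where Dcn was 2.20.
Vtn shows the pattern on the deposited values. It was 4.28, 4.72, 4.82, 4.93 and 5.12 in GFP-naive and 1.02 to 2.23 with a median of 1.92 in α9k1-naive, 2.79, 3.30, 3.46 and 3.52 in GFP-crush and 2.22, 2.81, 3.18 and 3.20 in α9k1-crush. The naive groups were apart and the crush groups overlapped. Nid2 was 5.25, 5.44, 5.44, 5.54 and 5.56 in GFP-naive and 3.89 to 4.22 with a median of 4.17 in α9k1-naive, 5.01, 5.12, 5.22 and 5.34 in GFP-crush and 4.95, 5.11, 5.23 and 5.45 in α9k1-crush. It was lower than all other libraries in the 6 α9k1-naive libraries. Of the 12 calls, 6 held in all 19 fits that left out 1 library, and that of Col6a2 held in 4 of 19, that of Col4a2 in 6 of 19, that of Col5a2 in 11 of 19 and that of Dcn in 12 of 19. The count was 7 without GFP-naive replicate 3, GFP-crush replicate 2 or α9k1-naive replicate 4. Among the ligands the interaction was negative without covariates for Thbs1 (-1.27, adjusted p = 0.0027) and Spp1 (-1.29, adjusted p = 0.0011), and with covariates it was -1.25 ± 0.49 and -1.34 ± 0.48 and was not called (adjusted p = 0.27 and 0.21).

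**Figure D4:**
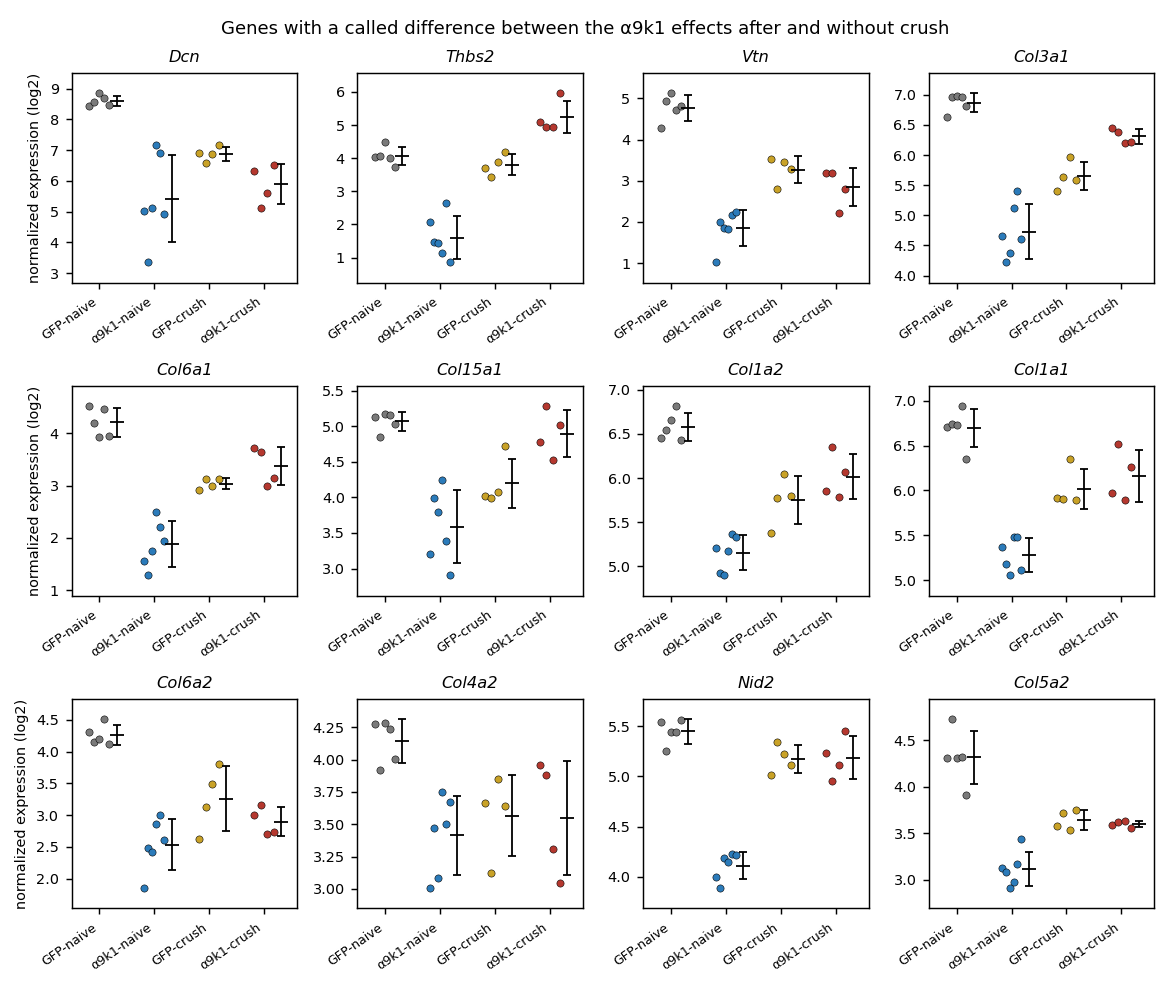
Normalized expression (log2, y axis) of the 12 genes with a called interaction in each library, by group on the x axis, with the group mean and SD beside the points. In each panel the α9k1-naive mean lies below the GFP-naive mean, by more than the means of the 2 crush groups differ.

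Markers of cells other than neurons moved with the same groups, and their counts stand against the shares of all genes called, 11.4% higher and 17.6% lower in α9k1-naive, 7.39% and 15.7% in GFP-crush, and 4.47% and 5.27% in α9k1-crush against α9k1-naive. Of the 10 fibroblast markers 3 were in the table (Clec3b, Islr and Mfap5), and their summed level was 6.05 to 6.60 in GFP-naive, 3.13 to 4.30 in α9k1-naive, 5.64 to 6.12 in GFP-crush and 4.83 to 5.74 in α9k1-crush. All 3 fell in α9k1-naive and 1 in GFP-crush, each against GFP-naive, and 2 rose in α9k1-crush against α9k1-naive. The 4 of 7 mural cell markers in the table summed to 5.53 to 5.87, 3.81 to 4.36, 3.90 to 5.01 and 3.81 to 4.66 in the same order of groups. All 4 fell in α9k1-naive and in GFP-crush, each against GFP-naive, and 2 rose in α9k1-crush against α9k1-naive. The 5 of 8 endothelial markers in the table summed to 6.72 to 7.23, 4.18 to 6.10, 6.63 to 7.43 and 4.56 to 6.29. All 5 fell in α9k1-naive, none was called in GFP-crush against GFP-naive, and 2 rose in α9k1-crush against α9k1-naive.
The 8 Schwann cell markers, all in the table, summed to 13.25 to 13.61 in GFP-naive, 11.98 to 12.38 in α9k1-naive, 13.36 to 13.98 in GFP-crush and 12.53 to 13.49 in α9k1-crush. Of these 7 fell in α9k1-naive and 6 rose in α9k1-crush against α9k1-naive. Without covariates 6 rose and 2 fell in the latter comparison (all genes, 28.5% and 27.1%). In GFP-crush, where most matrix genes fell, 1 Schwann cell marker rose (Mbp, 0.79) and 1 fell (Sox10, -0.69). The satellite glia markers summed to 15.53 to 15.91, 16.25 to 16.76, 14.60 to 14.91 and 14.06 to 14.63 in the 4 groups, with 4 of 7 rising in α9k1-naive, 5 falling in GFP-crush and 6 falling in α9k1-crush against α9k1-naive. Like Tnc, Fbln2 and Spp1, their sum was highest in α9k1-naive. For Tnc and Fbln2 this likeness did not extend to the crush groups. Mean satellite glia sums were 14.744 with GFP and 14.325 with α9k1 after crush, while Tnc had means of 3.844 and 5.324. Fbln2 had 8.388 and 8.807 there, and Spp1 had 10.294 and 10.184. Without covariates 3 of the 7 markers were higher and 1 lower in α9k1-naive against GFP-naive (all genes, 16.5% and 29.5%). The 8 macrophage markers in the table, of 10, summed to 7.13 to 7.66, 8.42 to 8.91, 8.84 to 9.46 and 8.53 to 9.51, with 5 rising in α9k1-naive, 5 in GFP-crush and 2 in α9k1-crush against α9k1-naive. The sensory neuron markers summed to 13.31 to 13.67, 12.65 to 12.96, 13.86 to 14.38 and 13.90 to 14.39, with 4 of 12 falling and 1 rising in α9k1-naive, 7 rising in GFP-crush and 4 rising in α9k1-crush against α9k1-naive. In α9k1-crush against GFP-crush no marker was called with covariates. Without them 29.6% of all genes were higher and 28.3% lower in this comparison. The lower markers were then 5 of 8 for Schwann cells, 4 of 5 endothelial, 2 of 3 fibroblast and 2 of 4 mural, with none higher. Satellite glia had 1 of 7 higher and 4 lower, macrophages 2 of 8 higher and none lower, and neurons 5 of 12 higher and 1 lower. The part of these cells in the matrix results was not tested.

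**Figure D5:**
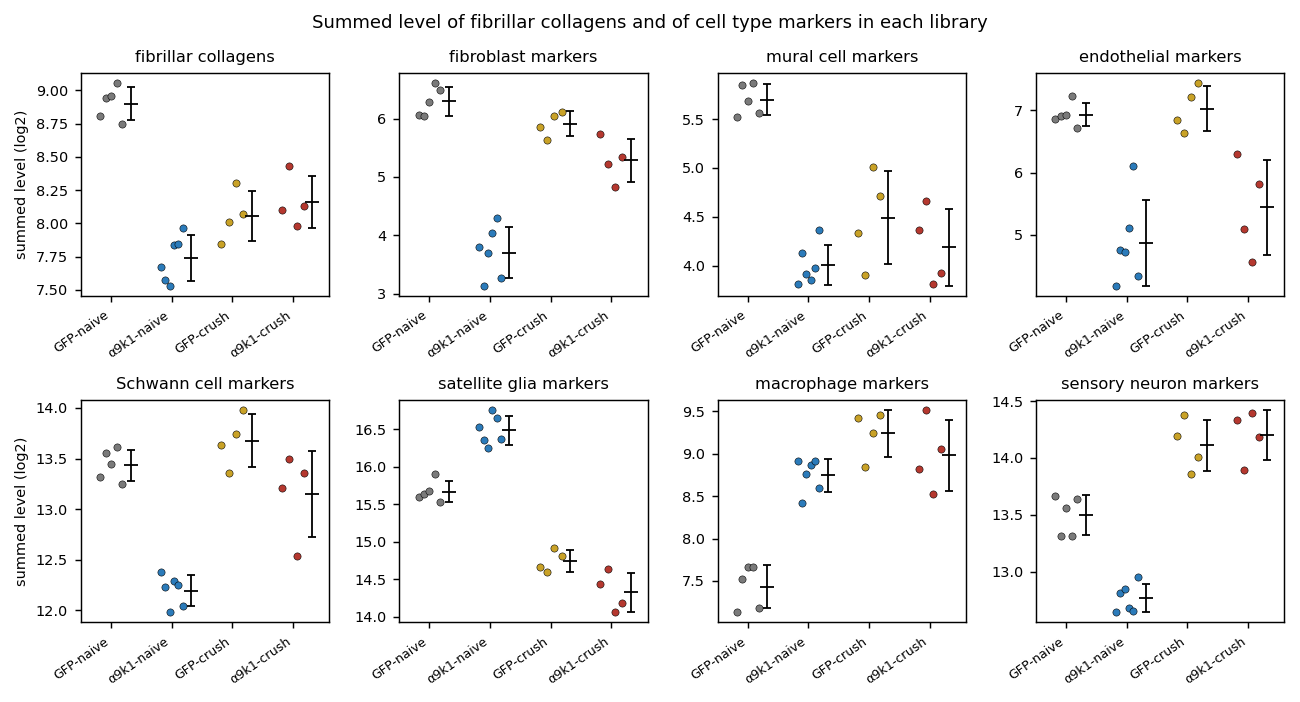
Summed level (log2 of summed linear values, y axis) of the 9 fibrillar collagens and of 7 sets of cell type markers in each library, by group on the x axis, with the group mean and SD beside the points. The means of fibrillar collagens and of fibroblast, mural cell, endothelial, Schwann cell and sensory neuron markers are lowest in α9k1-naive. That of satellite glia markers is highest there.

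Genes that process collagen or bind the matrix were counted in the same way. Of 37 genes for collagen processing and cross-linking 22 were in the table. In GFP-crush 10 of them fell and none rose (all genes, 15.7% and 7.39%), among them Loxl3, a lysyl oxidase that cross-links collagen (-0.84), Serpinh1, the collagen chaperone HSP47 (-0.81), and the prolyl hydroxylase P3h3 (-0.77). In α9k1-naive 4 fell, led by P3h4 (-0.80), P3h3 (-0.53) and Serpinh1 (-0.51), and Loxl1 rose (0.76), where 17.6% of all genes fell and 11.4% rose. Without covariates 8 were lower and 3 higher (all genes, 29.5% and 16.5%). With covariates none was called in α9k1-crush against either group, and without them 4 were higher and 11 lower against α9k1-naive (all genes, 28.5% and 27.1%), and 5 higher and 7 lower against GFP-crush (all genes, 29.6% and 28.3%).
Of 29 matrix receptors 22 were in the table, Itga9 included. In α9k1-naive 5 rose and 7 fell (all genes, 11.4% and 17.6%), and without covariates 9 were higher and 6 lower (all genes, 16.5% and 29.5%). The syndecan Sdc4, a heparan sulphate co-receptor for fibronectin, rose by 1.81 and the fibronectin receptor chain Itga5 by 1.01, while Cd36, a receptor for thrombospondin-1, fell (-2.57), as did the laminin receptor chain Itgb4 (-0.99) and the αv partner Itgb8 (-0.90). In GFP-crush 13 receptors fell and 1 rose (all genes, 15.7% and 7.39%). Itga5 rose (1.31), and Itgav (-1.32), Cd36 (-1.31) and Sdc3 (-1.19) fell furthest. In α9k1-crush against α9k1-naive (all genes, 4.47% higher and 5.27% lower) 4 rose, among them the laminin receptor chains Itga6 (1.32) and Itga7 (1.25), and 4 fell, among them Sdc4 (-1.52) and the collagen receptor Ddr2 (-1.49). Without covariates 8 were higher and 10 lower there (all genes, 28.5% and 27.1%). With covariates only Itga9 was called in α9k1-crush against GFP-crush (5.51 ± 1.13, adjusted p = 0.038), a call lost without α9k1-naive replicate 4, GFP-crush replicate 2 or GFP-naive replicate 1. Without covariates 13 receptors were higher and 1 lower in this comparison (all genes, 29.6% and 28.3%).
Of 11 genes of the hyaluronan and lectican matrix of the central nervous system 3 were in the table. The lectican Bcan, brevican, rose in α9k1-naive (0.86 ± 0.17, adjusted p = 0.0026) and fell in GFP-crush (-1.15 ± 0.17, adjusted p = 8.4e-04) and in α9k1-crush against α9k1-naive (-2.17 ± 0.31, adjusted p = 0.0018). Hapln4, a link protein of perineuronal nets, fell in α9k1-naive (-2.69) and rose in α9k1-crush against α9k1-naive (3.28). The receptor phosphatase Ptprz1 fell in GFP-crush (-1.22) and in α9k1-crush against α9k1-naive (-1.45).

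Col8a2, a short-chain collagen, was 3.93 ± 0.18 in GFP-naive, 3.97 ± 0.18 in α9k1-naive, 3.90 ± 0.17 in GFP-crush and 4.0 ± 0.21 in α9k1-crush, and was called in none of the comparisons with or without covariates. The mouse annotation holds 80 symbols that match the rule, of which 49 were in the table. The others, among them the tenascin Tnr, the lectican Vcan, the matricellular Postn, Fbn1, Npnt, Col6a3 and Lama5, were not analysed here. The symbol Col4a3bp matches the pattern but is a ceramide transporter.
Exons of 14 of the 49 genes overlap those of another annotated gene, on the opposite strand for all but Spp1 and Col3a1. As the library kit does not keep the strand, reads in these stretches, of 14 to 631 bases, cannot be told apart. For Col4a1 and Col4a2, which lie head to head, the shared stretch is 22 bases, for Tnc 176, for Thbs1 208 and for Spp1 309.

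Windows of 250 bases before RefSeq start sites (GRCm38.p6) were found for 36 of the 49 genes, 42 windows in all. They are shown for 4 genes of which 2 rose and 2 fell in α9k1-naive and whose windows hold the bases TATAAA. These were matched at any place in the window, so a match need not be a TATA box. In the 4 windows shown the match lies in the first or middle part, not near the start site. Capitals mark TATAAA and the GC box GGGCGG on either strand. The windows are chr4:64047016-64047265 for Tnc (minus strand), chr5:104434861-104435110 for Spp1 (plus), chr17:14694263-14694512 for Thbs2 (minus) and chr1:45311288-45311537 for Col3a1 (plus).
Tnc: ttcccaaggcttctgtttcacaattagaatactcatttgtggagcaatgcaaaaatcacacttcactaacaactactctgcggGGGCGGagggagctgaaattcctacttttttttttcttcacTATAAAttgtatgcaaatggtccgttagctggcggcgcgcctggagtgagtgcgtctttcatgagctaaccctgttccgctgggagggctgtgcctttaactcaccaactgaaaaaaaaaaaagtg
Spp1: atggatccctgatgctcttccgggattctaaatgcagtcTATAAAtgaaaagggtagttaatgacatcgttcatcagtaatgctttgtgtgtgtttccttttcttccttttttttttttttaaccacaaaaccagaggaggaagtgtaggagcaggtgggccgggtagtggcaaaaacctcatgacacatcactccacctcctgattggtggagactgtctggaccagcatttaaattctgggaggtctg
Thbs2: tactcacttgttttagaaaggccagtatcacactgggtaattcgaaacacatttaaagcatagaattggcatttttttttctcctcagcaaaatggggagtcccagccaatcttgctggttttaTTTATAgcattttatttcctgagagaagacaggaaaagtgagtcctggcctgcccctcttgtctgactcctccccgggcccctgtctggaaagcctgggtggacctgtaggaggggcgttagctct
Col3a1: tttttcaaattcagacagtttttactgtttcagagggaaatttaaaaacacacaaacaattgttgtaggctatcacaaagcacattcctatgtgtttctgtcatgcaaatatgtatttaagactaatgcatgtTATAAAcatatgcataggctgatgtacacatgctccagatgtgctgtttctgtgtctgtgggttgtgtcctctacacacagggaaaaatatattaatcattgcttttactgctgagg
TATAAA was in 6 of the 42 windows (14.3%), and in 12.4% of 32851 windows of all genes. These belong to 5 genes, the 4 shown and Vtn. GGGCGG was in 61.9% of the windows, against 32.7% of all, and the AP-1 motif TGANTCA was in 1, that of Col6a1 (2.38%), against 6.75% of all.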

How the data were processed

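RNA-seq was analysed in 19 libraries, grouped by their labels (GFP-naive 5, α9k1-naive 6 and both crush groups 4). The libraries are biological replicates by the study's methods, while the labels do not tie them to animals. The authors prepared libraries with the SMART-Seq v4 kit, ran STAR against mm10 (GRCm38) and Salmon for counts, removed genes with fewer than 10 reads in over 80% of samples, added a small pseudocount and used cqn to normalize for length and sequencing depth. They deposited the resulting log2 values. Their deposited sequencing metrics, from Picard, hold counts of reads and bases, fractions, percentages (GC and AT dropout) and ratios (coverage bias). In 5 columns on duplicates the values are those of a neighbouring Picard column. Their deposited fold changes and p-values were not used. Gene names come from a separate deposited table in the same row order: the row means correlated with its listed means at r = 0.959, against at most 0.0984 after shifting or shuffling rows.

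The members and gene lists were chosen with earlier results of these data known. One limma fit (limma 3.58.1, R 4.3.3) took all libraries, 4 group means and the first 3 principal components of 48 scaled metrics (45.9%, 24.1% and 11.5% of their variance). Batch, a term of the study's model, is not in the labels and was left out. P-values were adjusted over 12629 genes by the Benjamini-Hochberg method, and calls made at 0.1, the study's threshold. Each adjusted p comes from this fit if no other is given beside it. The ligands were also tested on deposited values with 2-sided exact permutation tests. The fits were tested on simulated data in which 100 genes changed by 1 on the log2 scale. Of these 83% were called in α9k1-naive against GFP-naive and 80% in GFP-crush against GFP-naive. Only 33% were called in α9k1-crush against α9k1-naive and 20% in α9k1-crush against GFP-crush. As named genes the ligands, the called genes of the 49 (at most 10 per direction) and up to 5 called without covariates alone were set, and further members were named after their values were seen, to account for all 49. Alternatives were no covariates, only the groups compared, removal of the lowest 25% of genes, quantile normalization, median centring, array weights, a replicate block and leaving out each library.

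The same replicate number does not mark the same animal in the labels. Motifs and sites were searched with Python 3.11.15 and biopython 1.88 in GENCODE M21 and RefSeq sequences of GRCm38, and figures drawn with matplotlib 3.10.9. Counting error cannot be given for normalized values, and the SD between libraries includes it.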

Additional observations from a re-analysis of the deposited data

Results flagged for a closer look

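Within the groups, 13 of 196 sets of values (49 genes in 4 groups) held 1 library set apart from the rest by Dixon's criterion, which chance gives in about 1 of 20. The α9k1-crush library replicate 4 was set apart by a high Thbs2 (5.954) and by a low Tnc (4.849) and Lamc1 (3.831), and replicate 2 of that group by Col14a1 (3.92). In α9k1-naive the libraries were replicate 1 for Vtn (1.019), replicate 2 for Lamc1 (5.072), replicate 5 for Lamb1 (5.132) and replicate 6 for Col5a3 (6.687). In GFP-crush they were replicate 1 for Col18a1 (3.176), replicate 3 for Col1a1 (6.35) and replicate 4 for Col15a1 (4.716). In GFP-naive they were replicate 2 for Lama2 (4.901) and replicate 5 for Hspg2 (4.086). All these values are on the deposited log2 scale.

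The α9k1 effect differed between the injured and the uninjured state, by the interaction term of the limma fit, for 12 of the 49 genes. All 12 were positive, where 1.35% of all genes were called positive and 0.847% negative. The differences on the log2 scale were 4.867 for Dcn, 4.271 for Thbs2, 3.672 for Vtn, 3.566 for Col3a1 and 3.224 for Col6a1. They were 2.549 for Col15a1, 2.056 for Col1a2, 1.991 for Col1a1 and 1.969 for Col6a2, and 1.431, 1.351 and 1.275 for Col4a2, Nid2 and Col5a2. Of these calls 6 held in all 19 fits that each left out 1 library, and the count was 7 to 12 in those fits. Without covariates 20 were positive and 5 negative, where 23.3% and 16.1% of all genes were called.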

How the results depend on the processing

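Counts of called genes among the 49 stayed within 1.5 times their main value under quantile normalization and median centring. The cause of the other shifts was not tested, except that removal of the lowest 25% of genes left 36 of the 49 genes (4 higher instead of 7 in α9k1-naive against GFP-naive). Without covariates, α9k1-crush against GFP-crush went from 0 to 10 higher and 8 lower, α9k1-crush against α9k1-naive from 8 to 25 lower, and the interaction from 12 to 20 positive and from 0 to 5 negative. With only the groups compared, the counts were 19 lower instead of 39 in GFP-crush against GFP-naive, and 1 higher instead of 9 and 4 lower instead of 8 in α9k1-crush against α9k1-naive. The interaction has no such fit, as it takes all 4 groups. Array weights gave 13 lower instead of 8 in α9k1-crush against α9k1-naive. The shares of all genes called are not given for the filter, for only the groups compared or for array weights. A shift of the 49 alone cannot be told from one of all genes there.

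For the fits with a replicate block, the shares of all genes called are not given either. A shift of the matrix genes alone cannot be told from one of all genes there. With a replicate block, the counts were 3 higher and 1 lower in α9k1-crush against α9k1-naive and 2 for the positive interaction. With the block and no covariates they were 10 higher and 7 lower in α9k1-crush against GFP-crush, 25 lower in α9k1-crush against α9k1-naive, and 21 positive and 4 negative interactions. The numbers were not read as pairs: over 25 pairs of libraries with the same number in different groups the median correlation of deviations was 0.0204 (range -0.2688 to 0.1487), and 12 of 50 correlated best with their own number.

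Leaving out 1 library at a time, with or without covariates, gave 0 to 13 higher and 0 to 14 lower in α9k1-crush against GFP-crush, 4 to 11 higher and 3 to 27 lower in α9k1-crush against α9k1-naive, and 7 to 20 positive and 0 to 8 negative interactions. With covariates alone the ranges were 5 to 7 higher and 15 to 19 lower in α9k1-naive against GFP-naive, 28 to 40 lower in GFP-crush against GFP-naive, and 0 in α9k1-crush against GFP-crush.

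Some log2 fold changes turned sign. In α9k1-crush against GFP-crush, Fn1 was -0.407 without covariates, with the block or without it, and -0.611 with only the groups compared, and Tnc was -1.313 in the latter fit. Hspg2 was 0.167 with the block. In α9k1-crush against α9k1-naive, Fn1 was -0.495 without covariates, -0.484 with only the groups compared and -0.437 with the block and no covariates. With 1 library left out, α9k1-crush against GFP-crush ranged from -1.263 to 0.01 for Col27a1, from -0.553 to 1.071 for Fn1 and from -1.413 to 0.321 for Hspg2. Fn1 ranged from -0.641 to 0.265 in α9k1-crush against α9k1-naive, and Nid1 from -0.306 to 0.096 in α9k1-naive against GFP-naive. With 4 to 6 libraries a group and no counts deposited per gene, the precision of low genes is limited by the spread between libraries alone.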
